A study of Mus musculus with 6 samples.

Results

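The 10 genes described here, Trem2, Tyrobp, Gpnmb, Spp1, Lgals3, Fabp5, Lpl, Cd68, Clec7a and Ms4a7, are known from the lipid-associated, TREM2-positive macrophages that gather in scarred and fatty liver. They were taken by symbol from the 25403 genes of the count table, as a list drawn up with earlier results of these data known, and all 10 were found and passed the filter on low counts. RNA was measured in whole liver of 6 mice, 3 labelled as wild-type C57BL6/J (WT) and 3 labelled Themis-KO, described as a whole-body knockout of the T cell signaling gene Themis. All 6 mice received the same MASH diet (metabolic dysfunction-associated steatohepatitis), named AMYLIN liver NASH diet in the labels, with 40% of energy as fat, 20% as fructose and 2% cholesterol. Feeding began at 10 to 12 weeks of age and lasted 3 months. There was no chow-fed group among these libraries, so each comparison is between the genotype labels on this diet. The methods name purchased mice as WT and a line from another laboratory as Themis-KO, while the study speaks of littermates for its chow-fed mice, so the breeding of these 6 is uncertain.

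TREM2 is a receptor of myeloid cells that binds lipids, lipoproteins and debris of dead cells, and it signals through the membrane adaptor TYROBP (DAP12), which recruits the kinase SYK. Macrophages that take up lipid in fatty liver, obese adipose tissue or arterial plaque switch on a shared set of genes for lipid handling, lysosomes and matrix interaction. In liver they derive largely from blood monocytes, and they stand beside the resident Kupffer cells, which carry CLEC4F and TIMD4.

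The libraries held between 20679642 and 25649767 estimated counts on genes. Levels are given as CPM (counts scaled to library size, with TMM normalization), always for replicates 1, 2 and 3 in that order. Themis itself was at 8.07, 25.6 and 12.0 CPM under the WT label and at 8.63, 7.74 and 9.97 CPM under the Themis-KO label, with overlapping ranges (log2 fold change -0.79, adjusted p = 0.199, exact two-sided permutation p = 0.3). Since this gene does not separate the groups, and the deleted part of it is not given in the sources used here, each direction rests on the labels. WT replicates 1 and 2 also stood apart in their mitochondrial reads: Gm28438 took 96.6% and 96.8% of the summed counts of it and mt-Nd3, against 2.20% to 3.26% in WT replicate 3 and the 3 livers labelled Themis-KO. The hepatocyte gene Alb was abundant in the 6 livers, as the tissue label says. It was at 42278, 39776 and 43024 CPM under the WT label and at 33597, 33657 and 37327 CPM under the Themis-KO label. These levels did not overlap (log2 fold change -0.26, adjusted p = 0.185).

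Lipid-associated macrophage genes were higher in livers labelled Themis-KO. Of the 10 genes, 8 rose at an adjusted p under 0.05 and 0 fell, where 4.97% of the 14496 tested genes rose, 4.14% fell and 9.11% were called in either direction. With all 6 livers no member had an unadjusted p under 0.05 in the negative direction by edgeR, and DESeq2 also called 0 lower. The rises ran from 1.69-fold for Lpl to 4.35-fold for Lgals3, and 6 of the 8 were at least 2-fold, as were the rises of 1.86% of all tested genes. Ms4a7 was 2.02-fold higher and missed the threshold (adjusted p = 0.0738), and Fabp5 was the only one of the 10 with a negative log2 fold change, at -0.16. In 9 of the 10 genes the lowest level under the Themis-KO label exceeded the highest under the WT label, against 17.7% of all tested genes in this direction and 34.6% without overlap in either. The median log2 fold change of the 10 was 1.17, and that of all tested genes was 0.0095. In whole tissue, more cells of a type and more RNA per cell cannot be told apart.

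**Figure D1:**
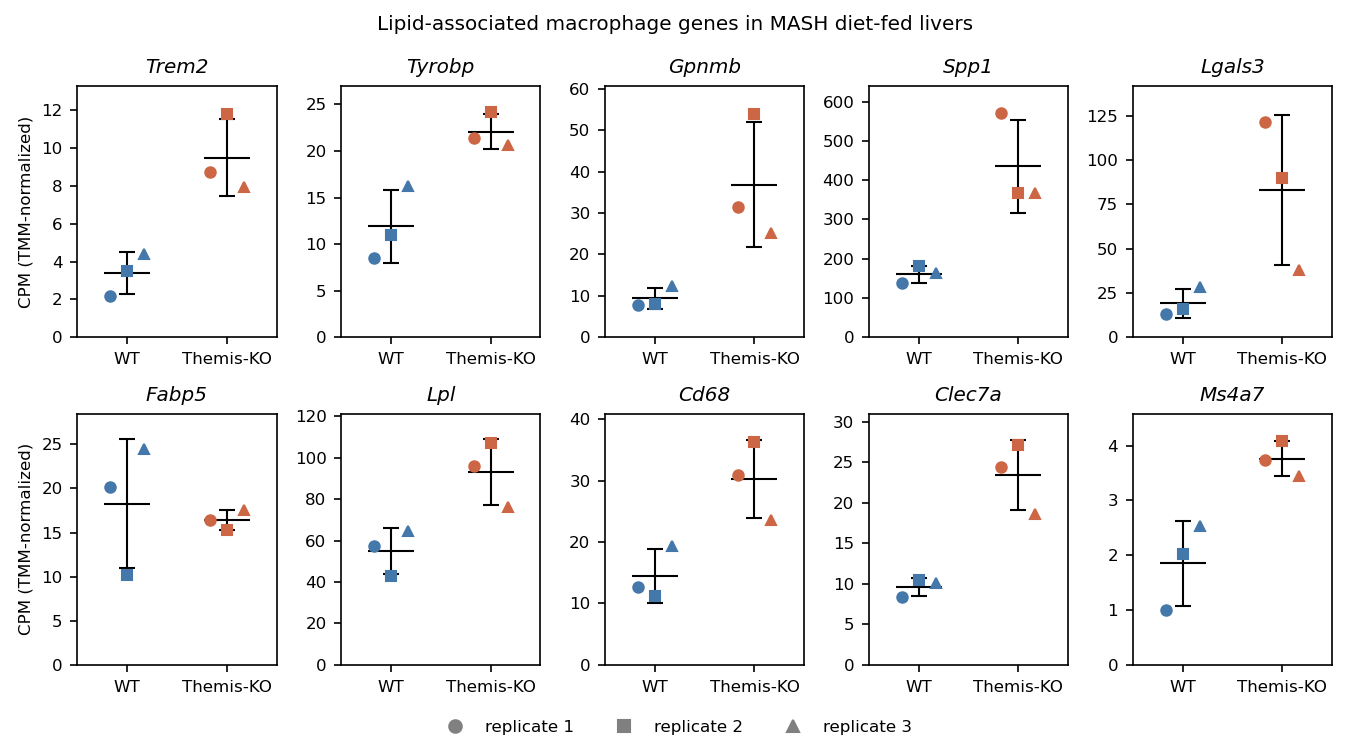
Level of each of the 10 genes in each liver, as TMM-normalized CPM on a linear axis that starts at 0. Points are single livers, with a marker shape per replicate number, and the bars are the mean and SD of 3 livers per label. Only the panel of Fabp5 shows overlapping groups.

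Among the receptors, Trem2 (ENSMUSG00000023992, chromosome 17, 48346401 to 48354147, forward strand of GRCm38) was at 2.20, 3.50 and 4.42 CPM under the WT label and at 8.75, 11.8 and 7.93 CPM under the Themis-KO label. These levels rest on 48 to 275 counts per liver. The lowest liver labelled Themis-KO was 1.80 times the highest labelled WT, and the fold was 2.80 (95% confidence interval 1.82 to 4.31, adjusted p = 0.0255). Its adaptor Tyrobp (chromosome 7, 30413760 to 30417585, forward strand) was at 8.53, 11.0 and 16.2 CPM under the WT label and at 21.4, 24.2 and 20.7 CPM under the Themis-KO label. That was a rise of 1.85-fold (1.31 to 2.61, adjusted p = 0.0444). WT replicate 3 had the highest WT level of both genes, and the gap between the groups was narrower for Tyrobp, with the lowest liver labelled Themis-KO 1.28 times the highest labelled WT. Per length of the longest coding transcript, Tyrobp stood at 7.48, 6.05 and 7.08 times the level of Trem2 under the WT label and at 4.72, 3.94 and 5.03 times under the Themis-KO label. These ratios were lower in each liver labelled Themis-KO than in any labelled WT, and they were formed with both levels known, so they carry no test.

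Clec7a (chromosome 6, 129461591 to 129472779, reverse strand) encodes Dectin-1, a receptor for fungal beta-glucan that signals through SYK. It was at 8.39, 10.5 and 10.1 CPM under the WT label and at 24.5, 27.1 and 18.7 CPM under the Themis-KO label, and its WT livers were the tightest of the 10 genes, with a coefficient of variation of 11.5%. The rise was 2.42-fold (1.87 to 3.14, adjusted p = 0.0119), with the smallest p-value among the 10. Ms4a7 (chromosome 19, 11321039 to 11336146, reverse strand), a membrane protein of macrophages that crosses the membrane several times, had the lowest level, with 22 to 95 counts per liver. It was at 1.01, 2.02 and 2.53 CPM under the WT label and at 3.74, 4.09 and 3.45 CPM under the Themis-KO label. The groups did not overlap, but the WT livers had a coefficient of variation of 41.7% and the interval of the fold ran from 1.24 to 3.30.

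For the 4 genes among the 10 whose start regions hold GAGGAA, the core letters bound by PU.1, a transcription factor that macrophages need, the 250 bases before the start are printed here. They come from RefSeq for GRCm38.p6 and run 5′ to 3′ on the gene's own strand, from chr17:48346151-48346400 (Trem2, forward), chr6:129472780-129473029 (Clec7a, reverse), chr5:104434861-104435110 (Spp1, forward) and chr11:69666171-69666420 (Cd68, reverse). Capitals mark the PU.1 core and, where present, the AP-1 and TATA box letters given after the sequences.
Trem2: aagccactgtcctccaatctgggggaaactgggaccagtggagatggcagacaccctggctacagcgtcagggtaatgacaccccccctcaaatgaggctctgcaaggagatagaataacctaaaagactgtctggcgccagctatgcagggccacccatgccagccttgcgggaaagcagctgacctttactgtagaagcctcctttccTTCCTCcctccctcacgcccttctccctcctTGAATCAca
Clec7a: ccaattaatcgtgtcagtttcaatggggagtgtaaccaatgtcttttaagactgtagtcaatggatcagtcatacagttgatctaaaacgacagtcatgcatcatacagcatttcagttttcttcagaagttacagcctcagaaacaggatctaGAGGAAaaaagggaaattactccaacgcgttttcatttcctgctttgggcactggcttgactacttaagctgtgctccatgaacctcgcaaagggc
Spp1: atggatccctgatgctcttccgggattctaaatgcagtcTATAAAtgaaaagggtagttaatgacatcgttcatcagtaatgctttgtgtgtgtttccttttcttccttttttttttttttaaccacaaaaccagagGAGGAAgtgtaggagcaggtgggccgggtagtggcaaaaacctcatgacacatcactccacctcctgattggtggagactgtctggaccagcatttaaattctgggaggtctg
Cd68: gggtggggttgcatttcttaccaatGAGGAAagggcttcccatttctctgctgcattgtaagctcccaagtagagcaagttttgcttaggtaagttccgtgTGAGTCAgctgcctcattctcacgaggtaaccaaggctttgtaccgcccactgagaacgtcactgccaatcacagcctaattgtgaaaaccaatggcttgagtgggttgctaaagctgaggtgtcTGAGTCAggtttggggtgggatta

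The promoter table had entries for 7 of the 10 genes, which were Trem2, Gpnmb, Spp1, Lgals3, Cd68, Clec7a and Ms4a7, and both strands were searched. Clec7a, Spp1 and Ms4a7 had a second start, which gave 10 regions. The PU.1 core was in 5 of these 10, from 4 genes, and in 23.3% of the 32851 regions of the same length in the table. In Trem2 it lies on the opposite strand, 40 to 35 bases before the start. The regions of Clec7a, chr6:129472780-129473029 and chr6:129472786-129473035, overlap and hold the same GAGGAA, which is counted in both.

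Letters of the AP-1 motif, TGANTCA, were found in 3 of the 10 regions, 1 each of Trem2, Cd68 and Ms4a7, against 6.75% of all regions, and in Trem2 they lie 9 to 3 bases before the start.

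The TATA box letters, TATAAA, were found in 1 of the 10, a region of Spp1, and in 12.4% of all regions. The marked motifs do not overlap each other in the regions shown.

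None of the 10 regions held the E-box of MiT/TFE factors, CACGTG, present in 6.02% of all regions, or the DR1 repeat of nuclear receptors, present in 0.0335%. A match describes the letters of the window and is not a measured binding site.

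Of the lysosomal and membrane glycoproteins, Gpnmb (chromosome 6, 49036546 to 49070929, forward strand), a glycoprotein of macrophages that digest lipid and cell debris, was at 7.75, 8.06 and 12.4 CPM under the WT label and at 31.4, 53.8 and 25.1 CPM under the Themis-KO label. The lowest liver labelled Themis-KO was 2.03 times the highest labelled WT. Its rise of 3.91-fold (2.38 to 6.40, adjusted p = 0.0194) came with a wide spread under the Themis-KO label, where replicate 2 stood highest and the coefficient of variation was 41.0%. Cd68 (chromosome 11, 69664213 to 69666153, reverse strand), the lysosomal glycoprotein used to stain macrophages, was at 12.8, 11.3 and 19.4 CPM under the WT label and at 30.9, 36.2 and 23.7 CPM under the Themis-KO label. Its rise was 2.08-fold (1.44 to 3.01, adjusted p = 0.0369).

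Of the secreted proteins, Spp1 (chromosome 5, 104435118 to 104441050, forward strand) encodes osteopontin, a ligand of integrins and CD44 made by macrophages and by bile duct cells. It was the most abundant of the 10, at 137, 180.1 and 163 CPM under the WT label and at 571, 367 and 366 CPM under the Themis-KO label. The rise was 2.72-fold (1.99 to 3.72, adjusted p = 0.0131), and Themis-KO replicate 1 stood above the other livers. Its exons share 309 bp with Gm42793 on the same strand, a gene model with 38 counts over the 6 livers, and the exons of the other 9 genes overlap no other annotated gene. Lgals3 (chromosome 14, 47367751 to 47386160, forward strand), the beta-galactoside-binding lectin galectin-3, had both the largest rise and the largest spread of the 10. It was at 13.2, 15.8 and 28.2 CPM under the WT label and at 122, 90.1 and 38.0 CPM under the Themis-KO label, which gave 4.35-fold (2.15 to 8.82, adjusted p = 0.0339). Themis-KO replicate 3 was 1.35 times WT replicate 3.

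Of the lipid-handling genes, Lpl rose and Fabp5 did not pass the test. Lpl (chromosome 8, 68880491 to 68907448, forward strand), the lipoprotein lipase that frees fatty acids from circulating triglyceride, was at 57.6, 43.1 and 64.6 CPM under the WT label and at 96.1, 107 and 76.1 CPM under the Themis-KO label. It rose 1.69-fold (1.28 to 2.24, adjusted p = 0.0412), the smallest of the 8 rises. Fabp5 (chromosome 3, 10012548 to 10016607, forward strand), a cytosolic fatty acid carrier, was at 20.1, 10.2 and 24.5 CPM under the WT label and at 16.4, 15.3 and 17.5 CPM under the Themis-KO label. Here the livers labelled Themis-KO lay inside the range of those labelled WT, and the fold was 0.896 (0.576 to 1.39, adjusted p = 0.725, exact two-sided permutation p = 0.7). For each of the other 9 genes that permutation test of CPM gave 0.1, the smallest p that 3 livers against 3 allow.

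**Figure D2:**
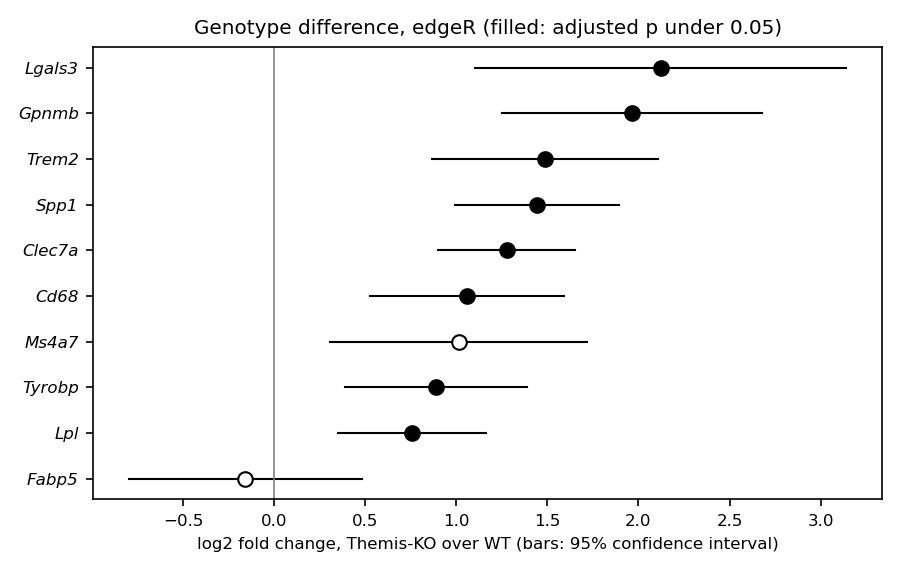
Log2 fold change of each gene, livers labelled Themis-KO over livers labelled WT (3 each), with the 95% confidence interval from edgeR. Filled points have an adjusted p under 0.05 over all tested genes. Lgals3 (2.12) and Gpnmb (1.97) lead, and the intervals of 9 genes lie above 0, Ms4a7 among them, while that of Fabp5 crosses it.

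Ordered by level per length of all annotated exons (RPKM, mean of the 6 livers), Spp1 came first, with a mean of 97.0 ± 13.2 (SD, n = 3) under the WT label and 264 ± 71.4 (SD, n = 3) under the Themis-KO label. Lgals3, Tyrobp and Cd68 followed. Their RPKM under the WT label were 10.3 ± 4.30, 17.9 ± 5.89 and 11.5 ± 3.45, and under the Themis-KO label they were 44.8 ± 22.8, 33.1 ± 2.76 and 24.1 ± 5.01 (SD, n = 3 each). Under the Themis-KO label Lgals3 and Tyrobp differed by less than their spread. Lpl, Clec7a, Fabp5 and Gpnmb formed a middle group, with means between 1.44 and 5.26 RPKM under the WT label. Trem2, at 0.682 ± 0.225 and 1.92 ± 0.415 RPKM, and Ms4a7, at 0.415 ± 0.173 and 0.844 ± 0.0718 RPKM, came last (SD, n = 3 each, WT label first). With the longest coding transcript as the length, a choice made after seeing the data because some exon unions are long, Trem2 was at 3.10 ± 1.02 and 8.74 ± 1.89 RPKM (SD, n = 3 each), and in the order of the 6-liver means only Clec7a and Fabp5 changed places. The order was not the same under each label. Under the WT label Tyrobp and Cd68 stood above Lgals3 by exon length, and by transcript length Fabp5 stood below only Spp1 and Tyrobp, at 18.5 ± 7.40 RPKM, and Trem2 stood above Gpnmb, at 2.54 ± 0.695 RPKM (SD, n = 3 each).

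The livers kept a similar order from gene to gene. Themis-KO replicate 2 was the highest of the livers with its label in 7 of the 10 genes, and Themis-KO replicate 3 the lowest in 9. Under the WT label, replicate 3 was the highest in 8 genes and replicate 1 the lowest in 7. In Spp1 and Lgals3 it was Themis-KO replicate 1 that stood on top. The summed CPM of the 10 genes was 268 to 345 under the WT label and 597 to 925 under the Themis-KO label, and between 47.1% and 61.7% of it was Spp1.

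The calls depended on single livers, while the directions mostly did not. Without WT replicate 1 or WT replicate 2, 0 of the 10 genes passed, without Themis-KO replicate 1 only Spp1 did, and without Themis-KO replicate 2 only Gpnmb and Spp1 did. Without WT replicate 3 or Themis-KO replicate 3 the number was 8. Among all tested genes, 12 rose without WT replicate 1, 19 without WT replicate 2, 8 without Themis-KO replicate 1 and 27 without Themis-KO replicate 2, against 481 without WT replicate 3 and 2228 without Themis-KO replicate 3. In each of these 6 fits 9 of the 10 genes had an unadjusted p under 0.05 and a positive change. Among all tested genes 2932 to 6291 had such a p in either direction, and with all 6 livers 4449 of 14496 did. DESeq2 on all 6 livers called 9 of the 10 higher, against 8.78% of the genes it tested. Over the fits without a liver the log2 fold change of Trem2 ran from 1.26 to 1.74, that of Gpnmb from 1.58 to 2.22, that of Lgals3 from 1.74 to 2.52 and that of Clec7a from 1.15 to 1.40. Fabp5 ran from -0.45 to 0.11, positive only without WT replicate 3, and had an unadjusted p under 0.05 in the negative direction without WT replicate 2.

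WT replicate 3 is the only WT liver that shares its mitochondrial type, the split by Gm28438 and mt-Nd3, with the livers labelled Themis-KO, so that type and label are partly confounded. With the type as a covariate, where the label rests on WT replicate 3 alone, 0 of the 10 genes passed by edgeR, 6 had an unadjusted p under 0.05, and 9 kept a positive change. Of all 14496 genes 3 passed in that fit, each of them lower, and 1524 had an unadjusted p under 0.05. There the log2 value of Spp1 was 1.42 (SE 0.32, adjusted p = 0.302) and that of Clec7a was 1.21 (SE 0.26, adjusted p = 0.279), near their values of 1.44 and 1.28 without it. Gpnmb was at 1.58 (SE 0.43, adjusted p = 0.390) and Trem2 at 1.10 (SE 0.35, adjusted p = 0.423). For Tyrobp the value was 0.45 (SE 0.19, adjusted p = 0.481), for Cd68 0.64 (SE 0.24, adjusted p = 0.450) and for Ms4a7 0.57 (SE 0.38, adjusted p = 0.599), against 0.89, 1.06 and 1.01 without the covariate. The part of the mitochondrial type in these differences was not tested further.

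**Figure D3:**
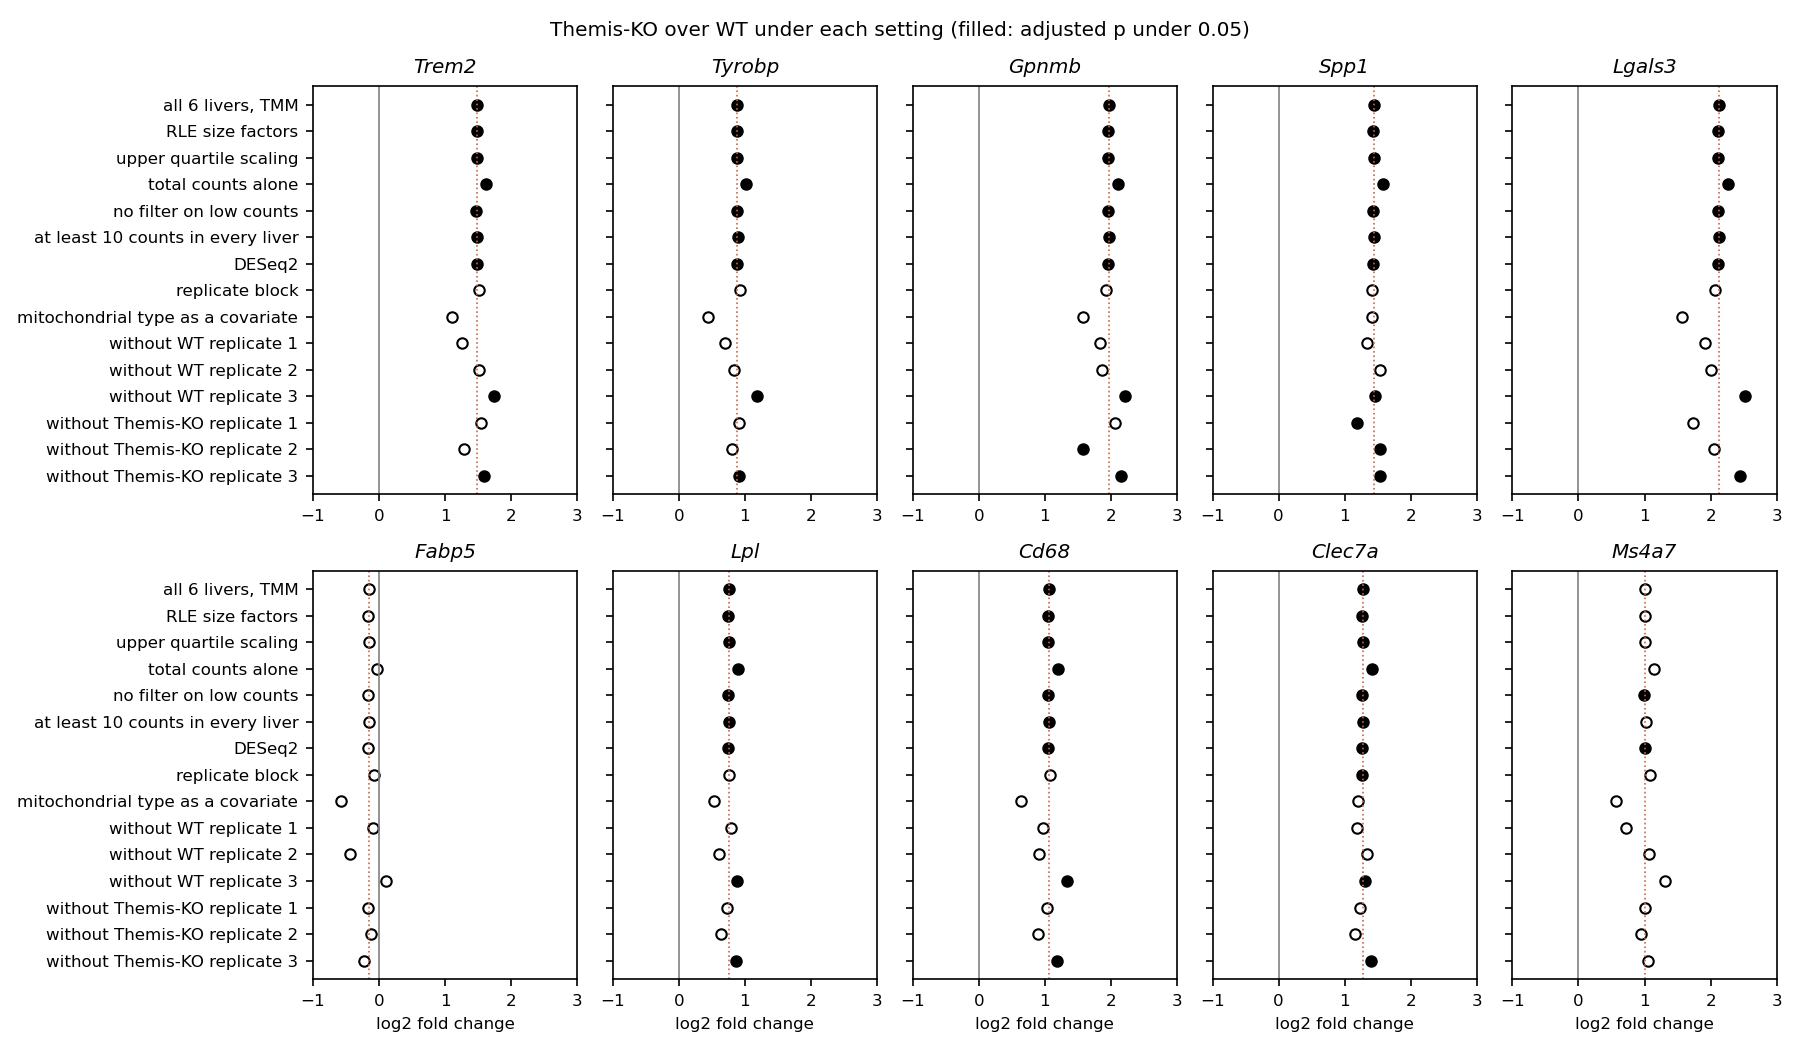
Log2 fold change of each gene, livers labelled Themis-KO over livers labelled WT, under each setting of scaling, filter, tool, covariate or livers used. Filled points have an adjusted p under 0.05, and the dotted line is the value with all 6 livers. Points of 9 genes stay right of 0 throughout, and most turn open under the covariates and without WT replicates 1 or 2 or Themis-KO replicates 1 or 2.

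Of 12 general macrophage genes, 3 rose, which were Mpeg1 (0.50, adjusted p = 0.0304), Ctss (0.82, adjusted p = 0.0345) and Fcgr1 (0.99, adjusted p = 0.0365), and 0 fell. All 12 had a positive log2 fold change, with a median of 0.68. The largest were those of Cd14 (1.76, adjusted p = 0.0604) and Itgam (1.29, adjusted p = 0.0847), which overlapped between the labels. Csf1r, the receptor that keeps macrophages alive, was at 41.0, 45.0 and 70.6 CPM under the WT label and at 75.6, 91.1 and 75.6 CPM under the Themis-KO label (1.55-fold, adjusted p = 0.0847). Adgre1, which encodes the surface antigen F4/80, was at 14.8, 14.0 and 29.8 CPM and at 24.9, 35.2 and 24.0 CPM (1.43-fold, adjusted p = 0.273). For the pan-leukocyte gene Ptprc (CD45) the fold was 1.56 (adjusted p = 0.0830). Summed over the list, general macrophage genes were at 453 to 690.0 CPM under the WT label and at 756 to 984 CPM under the Themis-KO label, and their part in the rise of the 10 genes was not tested beyond the ratios that follow.

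Relative to Csf1r in the same liver, 8 of the 10 genes were higher in each liver labelled Themis-KO than in any labelled WT, where 1.43% of all tested genes were. Trem2 was at 0.0538, 0.0779 and 0.0626 of Csf1r under the WT label and at 0.116, 0.130 and 0.105 under the Themis-KO label. Gpnmb showed the narrowest range of WT values relative to its mean, at 0.189, 0.179 and 0.175, and was at 0.415, 0.591 and 0.333 under the Themis-KO label. For Spp1 the margin was small, with 4.01 in WT replicate 2 and 4.03 in Themis-KO replicate 2, and for Ms4a7 the ratio was 0.0448 in both of these livers to 3 digits. Lpl and Fabp5 overlapped. Against Adgre1, 5 of the 10 were separated in this way, namely Trem2, Gpnmb, Lgals3, Cd68 and Clec7a, against 1.41% of all tested genes. The ratios to Csf1r and Adgre1 were not among the planned comparisons and carry no test. Cd14 and Itgam, whose log2 fold changes were larger than those of Csf1r and Adgre1, were not used as references. The counts of separated genes therefore hold for Csf1r and Adgre1 only. As a mean over genes on the log2 CPM scale, the 10 less the general macrophage list came to -0.89, -0.69 and -0.93 under the WT label and to -0.38, -0.55 and -0.48 under the Themis-KO label.

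**Figure D4:**
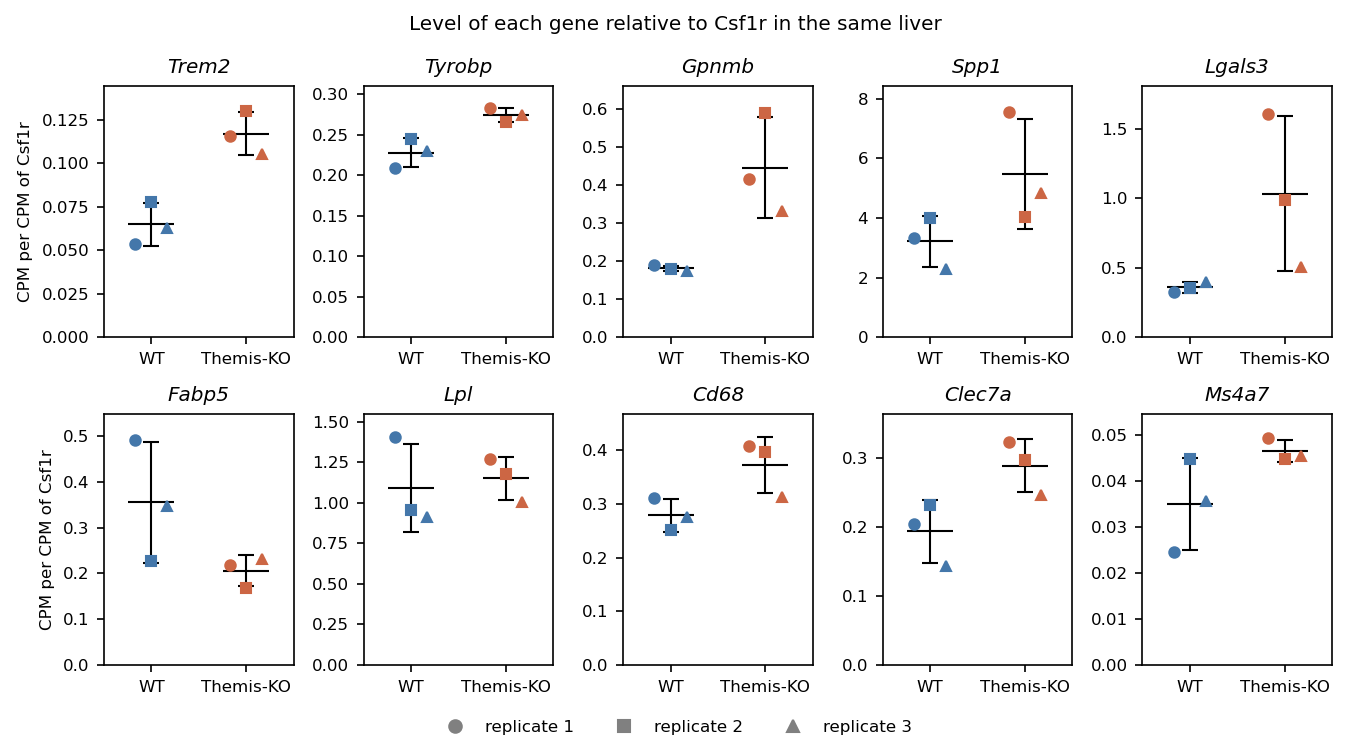
CPM of each of the 10 genes divided by the CPM of Csf1r in the same liver, on linear axes from 0. Points are livers and bars the mean and SD of 3 livers per label. The points of Trem2, Gpnmb and Lgals3 are apart between the labels, and those of Lpl and Fabp5 overlap.

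Around TREM2, a pathway list of 15 genes had 14 that were tested, all with a positive change and a median log2 fold change of 0.77. Of these, 4 rose and 0 fell. They were Il34, a ligand of CSF1R (0.95, adjusted p = 0.0237), Card9, the adaptor downstream of SYK and Dectin-1 (1.21, adjusted p = 0.0242), Ms4a4a, a relative of Ms4a7 (1.91, adjusted p = 0.0396), and Pik3cd, a leukocyte PI3-kinase subunit (0.92, adjusted p = 0.0439). The kinase gene Syk itself had a log2 fold change of 0.79 and missed the threshold (adjusted p = 0.0599). In 12 of the 14 the lowest level under the Themis-KO label exceeded the highest under the WT label, against 17.7% of all tested genes. The share of all tested genes called higher was 4.97%.

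Of the Ms4a family, 8 of 9 genes were tested and 4 rose, with a median log2 fold change of 1.09. Beside Ms4a4a these were Ms4a6b (1.05, adjusted p = 0.0313), Ms4a4c (2.47-fold, adjusted p = 0.0369) and Ms4a6c (1.12, adjusted p = 0.0388). These genes resemble each other in sequence and reads can be divided among them, so single values are uncertain. In the TREM family 3 genes were tested, and 0 passed by edgeR, at 1.20 for Treml2 (adjusted p = 0.0840), 0.39 for Treml4 (adjusted p = 0.299) and 1.00 for Trem1 (adjusted p = 0.396). Of 9 C-type lectin receptors and adaptors 1 rose, which was Clec12a (0.88, adjusted p = 0.0304), where 4.97% of all tested genes rose. In this list 8 were positive, with a median log2 fold change of 0.75. In 4 the lowest level under the Themis-KO label exceeded the highest under the WT label, against 17.7% of all tested genes.

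Among 21 other genes reported for lipid-associated macrophages, 8 rose and 0 fell, with a median log2 fold change of 0.57. Cd63, a tetraspanin of lysosomes and exosomes, had the largest rise of the list and was at 13.7, 18.3 and 22.7 CPM under the WT label and at 75.9, 72.4 and 65.1 CPM under the Themis-KO label (1.96, adjusted p = 0.00772). The tetraspanin gene Cd9 (1.02, adjusted p = 0.0198), the fatty acid carrier gene Fabp4 (0.90, adjusted p = 0.0246) and the cysteine protease gene Ctss also rose. Of 16 receptors and regulators of the secreted members, 3 rose, which were the integrin genes Itgb3 (0.79, adjusted p = 0.0283) and Itga9 (0.53, adjusted p = 0.0474) and the gene of the galectin-3-binding protein, Lgals3bp (1.32-fold, adjusted p = 0.0426). Apoc2, the cofactor of lipoprotein lipase, was at 0.35 (adjusted p = 0.0755).

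Of 13 transcription factors linked to this macrophage state, 0 rose and 1 fell by edgeR, and the median log2 fold change was 0.13. The gene that fell was Rxra (-0.42, adjusted p = 0.0351), a nuclear receptor that hepatocytes also express. Spi1, which encodes PU.1, was at 7.20, 7.05 and 11.4 CPM under the WT label and at 17.3, 17.9 and 11.9 CPM under the Themis-KO label (0.88, adjusted p = 0.0545). The MiT/TFE genes Tfec (0.68, adjusted p = 0.0775) and Tfe3 (0.50, adjusted p = 0.0955) did not pass either.

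Among markers of other cells, 0 of 10 resident Kupffer cell genes were called in either direction by edgeR, with values from -1.29 for Marco to 1.15 for Id3 and a median log2 fold change of 0.11. Cd163, a scavenger receptor, was at 17.8, 9.93 and 18.9 CPM under the WT label and at 6.46, 9.63 and 7.84 CPM under the Themis-KO label, without overlap (-0.96, adjusted p = 0.0562), and Cd5l, also without overlap, was at 104, 119.5 and 179.6 CPM and at 199.8, 249 and 206 CPM (0.70, adjusted p = 0.0649). Clec4f was at 76.2, 68.2 and 102 CPM under the WT label and at 80.7, 96.3 and 94.2 CPM under the Themis-KO label (0.14, adjusted p = 0.568). Timd4 was at 4.27, 3.84 and 8.84 CPM and at 2.85, 4.26 and 3.87 CPM (-0.63, adjusted p = 0.239). Clec4f and Timd4 overlapped between the labels. Of 8 monocyte genes 3 rose, which were Ccr2, Cx3cr1 and S100a4, with a median of 1.02. Of 10 stellate cell genes 6 rose (median 0.82), and of 8 endothelial cell genes 1 did, which was Lyve1 (median 0.15). Of 10 hepatocyte genes 2 fell, which were Cyp2e1 and Ass1 (median -0.35, 1 positive). In 5 of the 10 the levels under the Themis-KO label all lay below those under the WT label, against 16.9% of all tested genes. Of 5 T and NK cell genes 1 fell, which was Cd4, while 3 were positive and the median was 0.0055. The 4 neutrophil genes tested were all positive, from 0.98 to 1.21 with a median of 1.14, close to the 1.17 of the 10 members. None of the 4 was called by edgeR and each overlapped between the labels, and summed CPM of the 7 neutrophil genes in the table ran from 6.14 to 10.4 under the WT label and from 8.45 to 24.4 under the Themis-KO label. Of the 7 dendritic cell genes (median 0.46, 6 positive) and the 6 B cell genes (median -0.31, 1 positive) none was called either. The part of monocytes and neutrophils in the rise of the 10 genes was not tested.

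Since bile duct cells also make osteopontin, their markers stand beside Spp1. The summed CPM of 9 cholangiocyte markers was 39.0 to 44.0 under the WT label and 41.8 to 66.8 under the Themis-KO label, with the highest value in Themis-KO replicate 1, the liver with the most Spp1. Of the 8 that were tested 1 rose, which was Cldn7. Epcam was at 5.23, 4.08 and 4.18 CPM and at 13.1, 5.98 and 7.32 CPM (0.97, adjusted p = 0.0755). Krt19 was at 1.65, 1.15 and 2.25 CPM and at 4.63, 2.02 and 1.94 CPM (0.76, adjusted p = 0.242). In Themis-KO replicates 2 and 3 the level of Spp1 was at least 2.03 times the highest WT level, and the summed markers were at 41.8 and 45.0 CPM. The part of these cells in the rise of Spp1 was not tested.

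**Figure D5:**
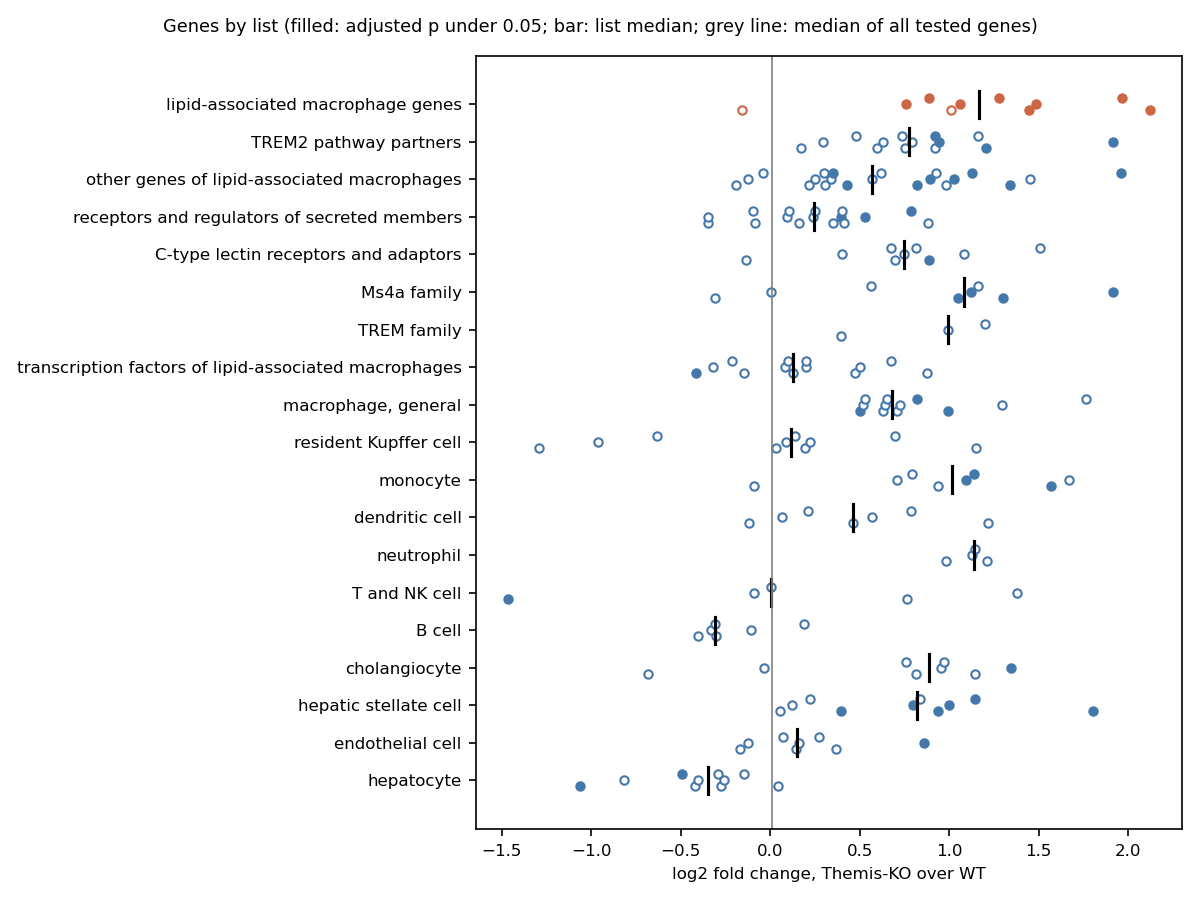
Log2 fold change, livers labelled Themis-KO over livers labelled WT, of every tested gene of each list. Points are genes, filled where the adjusted p is under 0.05, bars are list medians and the grey line is the median of all tested genes (0.0095). The lipid-associated macrophage genes have a median of 1.17, general macrophage genes 0.68 and resident Kupffer cell genes 0.11.

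The genes whose profile over the 6 livers was closest to that of Trem2, measured as the root mean square difference of centred log2 CPM among 3836 genes with a range of at least 1 on that scale, were Tnfrsf10b (0.097), S100a11 (0.13), Cyp4f16 (0.15), Gm30692 (0.18) and Mmp24 (0.18). Low counts limit the profiles of Mmp24, with 2 to 24 counts per liver, and of Gm30692, with 10 to 50. Of the members, Clec7a was closest, at rank 26 with 0.25, followed by Ms4a7 at rank 27, Gpnmb at 85, Tyrobp at 103 and Cd68 at 120. Lgals3 was at rank 1027 and Fabp5 at 2287. The measure uses the same 6 livers as the comparison of the labels and carries no test.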

How the data were processed

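The members and lists were chosen with earlier results of these data known. Per the labels, the authors trimmed reads with cutadapt 2.3, mapped them to GRCm38 with STAR 2.7.8a and estimated counts per gene with RSEM 1.3.3. The deposited values are estimated counts per gene without normalization, already whole. The annotation release and the strand setting are not given in the sources used here. RSEM divides reads that fit several genes. They were tested in edgeR 4.0.16 under R 4.3.3: filterByExpr kept 14496 of 25403 genes, libraries were scaled by TMM, and glmQLFit and glmQLFTest compared 3 livers per label without covariates, with Benjamini-Hochberg adjustment over all tested genes. Nothing says that the livers of a group came from separate litters or cages, so p-values measure the spread between these livers. The study used DESeq2, run here as version 1.42.0. Fits were tested on simulated counts. Coordinates and lengths are from GENCODE vM21 (GRCm38), promoters from RefSeq (GRCm38.p6). The prior count for log2 CPM was 2. Named genes were the 10 members, Themis, up to 4 genes of each list with the smallest p, defining cell markers and the 5 nearest to Trem2, and further marker genes were named after their values were seen. No 2 libraries of a group were alike within sampling noise (lowest chi-square per degree of freedom 9.12). The alternatives were other scalings (RLE, upper quartile, total counts), filters, thresholds, DESeq2, a replicate block, single livers left out, and mitochondrial type. Figures were drawn with matplotlib 3.10.9.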

Additional observations from a re-analysis of the deposited data

How the results depend on the processing

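The number of the 10 genes called higher was 8. It stayed between 6 and 9 under RLE, upper quartile and total-count scaling, both other filters, DESeq2 and both other thresholds, fell to 1 (Clec7a, adjusted p = 0.0486) with the replicate block and to 0 with the mitochondrial type as a covariate, and ran from 0 to 8 with single livers left out. The number called lower was 0 under every setting. The study speaks of its sequenced livers as pairs, without stating what joins the members of a pair. Same-numbered livers did not deviate together (mean correlation -0.13, against 0.066 for livers with different numbers). With 3 livers per label, these correlations cannot decide whether livers with the same number were paired. The block changed the calls of 7 of the 10 genes and moved the 1321 calls among all genes to 62. That total was 2179 without a filter, 2357 with DESeq2, 3 with the mitochondrial type, 431 with a fold of at least 2, 2980 at an adjusted p under 0.1, and 20 to 4267 with single livers left out, the extremes being without Themis-KO replicate 1 and without Themis-KO replicate 3. Scaling by total counts alone moved the median log2 fold change of tested genes from 0.0095 to 0.15 and the share of calls that were higher from 54.6% to 78.9%. The sign changed for Fabp5 without WT replicate 3 (0.11, with -0.45 to 0.11 over the fits without a liver), and with the mitochondrial type for Treml4 (-0.074), Adgre1 (-0.089) and Clec4f (-0.17). The cause was not tested. The 10 genes less the general macrophage list, as mean log2 CPM, differed between the labels by 0.37 with a prior count of 2 and with one of 0.5. Counts of 22 to 95 limit the precision for Ms4a7.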
